A study of Mus musculus with 32 samples.

Results

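Metabotropic glutamate receptors were followed through the dendrites and somas of single mouse hippocampal neurons, taking the 6 listed genes Grm2, Grm3, Grm4, Grm5, Grm7 and Grm8 by their symbols in the deposited tables. All 6 were present in both, that is among 44081 genes counted on 3′UTRs and among 23453 genes counted on exons. The neurons came from C57BL/6 mice at embryonic day 18 and were kept in primary culture for 15 days, with no treatment and no genetic change named in the labels. From each of 16 neurons the soma and the severed dendrites were drawn into separate tubes, which gave 16 dendrite and 16 soma libraries paired by neuron. Poly-adenylated RNA went through 3 rounds of aRNA amplification in neurons 1 to 4 and through 2 rounds in the other 12, and the labels give a spike-in dilution for all neurons but 1 and 2, whose libraries held 59 to 80 spike-in reads. The groups compared are therefore compartments of the same untreated cells.

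These receptors are G protein-coupled receptors for glutamate, which act through second messengers and not by opening a channel of their own. Group I, to which Grm5 belongs, couples through Gq to phospholipase C, calcium release and protein kinase C, and in the hippocampus it is best known for a form of long-term depression that depends on protein synthesis in dendrites. Group II (Grm2 and Grm3) and group III (Grm4, Grm7 and Grm8) couple through Gi/o proteins, lower cyclic AMP and are often found on presynaptic terminals, where they reduce transmitter release. Grm3 is also well known in astrocytes, and Grm7 in the active zone of axon terminals.

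Reads counted on 3′UTRs ranged from 646521 to 6954420 in dendrites and from 925525 to 21169974 in somas. The reads carried no molecular identifiers and came from amplified RNA, so a read is not a molecule, and detection limits below cover counting error alone. The neuronal markers Map2 and Syt1 had reads in all 32 libraries, as did the interneuron genes Gad1 and Gad2. Of the other interneuron genes, Slc32a1 had reads in 15 dendrites and 16 somas, Pvalb in 15 and 14, and Sst in 2 and 3. The pyramidal marker Slc17a7 had reads in 13 of 16 dendrites and 13 of 16 somas. Of the other pyramidal markers, Grin1 had reads in 15 dendrites and 16 somas and Camk2a in 13 and 14. Neurod2 had them in 12 and 12, and Neurod6 in 11 and 11. The summed normalized level of 6 astrocyte markers ranged from 0 to 1173 in dendrites and from 0 to 536.5 in somas, and the marker Gfap had reads in 6 dendrites and 4 somas.

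The family was dominated by 1 member. Grm5 took 38933 of the 40951 reads on the 3′UTRs of the 6 genes, or 95.1%, and it was the only one with reads in all 32 libraries. Grm4 took 2.67% of these reads and Grm7 1.49%, while Grm3, Grm2 and Grm8 had reads in 8, 1 and 6 libraries. These are shares of reads pooled over libraries and not levels, since the genes differ in length. The order of Grm4 and Grm7 turned with the compartment. In dendrites Grm7 had 443 reads and Grm4 181, and in somas Grm7 had 169 and Grm4 912. With at least 10 reads as the requirement, the number of receptors detected per library ranged from 0 to 4 in dendrites (median 1) and from 1 to 4 in somas (median 2). In 6 dendrites and 3 somas Grm5 was the only receptor at that level, and 3 dendrites had none. These counts were not made at equal depth, since the median library held 1605714 reads in dendrites and 6165691 in somas. With each library thinned to the smallest total, somas with 10 reads would fall to 2.58 for Grm4, 1.03 for Grm7 and 0.68 for Grm3. Dendrites would be at 1.99, 5.00 and 2.00 for the same genes.

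**Figure D1:**
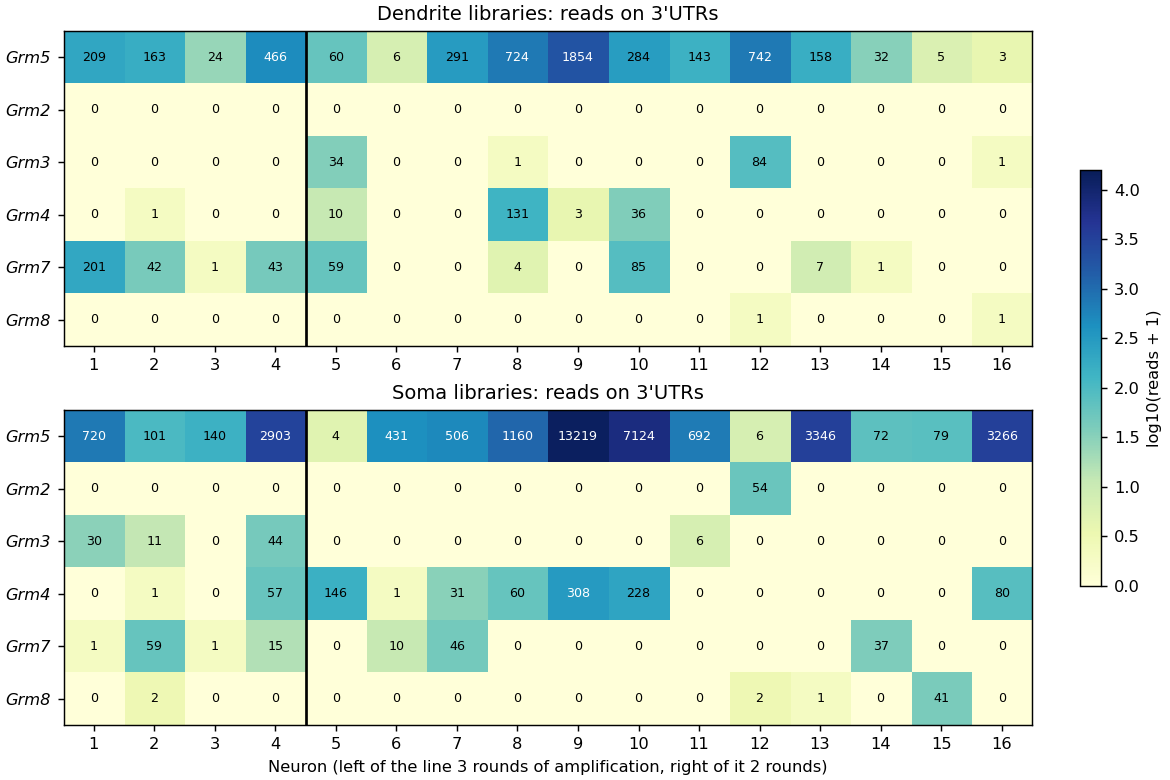
Reads on the 3′UTRs of the 6 receptor genes (vertical axis) in each neuron (horizontal axis), with dendrites above and somas below, the number of reads printed in each cell and the shade giving log10(reads + 1). Grm5 fills every column, from 3 to 1854 reads in dendrites and from 4 to 13219 in somas, while the other 5 genes leave most cells at 0.

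The genes differ in length and in place, as annotated by GENCODE on GRCm38 (mm10). Grm5 is on chromosome 7 from 87584168 to 88134907 on the plus strand, with 10.2 kb of exon sequence merged over its transcripts. Grm7 spans 922 kb of chromosome 6, from 110645581 to 111567230 on the plus strand, and Grm8 lies on the minus strand of the same chromosome from 27275119 to 28135178. Grm3 is on chromosome 5 from 9485541 to 9725170, Grm2 on chromosome 9 from 106643095 to 106656082 and Grm4 on chromosome 17 from 27422387 to 27521403, all on the minus strand.

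Levels were compared between the genes only on exons and per length, as size-factor normalized exon reads per kb of merged exon. The paper places most reads no further than 500 nt from a 3′ end, so reads need not scale with exon length. The effect of the division by length on the order below was not tested. In somas Grm5 came first with 50.9 ± 52.5 (SD, n = 16) normalized reads per kb, ahead of Grm3 with 3.28 ± 6.50. Grm5 was above Grm3 in 16 of 16 somas, a difference beyond the spread between neurons (two-sided exact permutation test flipping signs over 16 neurons, p = 3.05e-05, which is as low as this test can go, Benjamini-Hochberg adjusted p = 0.000305 over 10 neighbouring pairs). Below Grm3 the somas had Grm7 with 2.86 ± 9.43, Grm2 with 0.983 ± 3.90, Grm4 with 0.634 ± 1.38 and Grm8 with 0.160 ± 0.326 normalized reads per kb (SD, n = 16). None of these 4 further neighbouring pairs differed beyond the spread between neurons by the same exact permutation test, with adjusted p from 0.474 to 0.953.

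In dendrites the order per kb on exons began with Grm5 at 36.0 ± 32.7 and Grm7 at 14.7 ± 33.5 normalized reads per kb (SD, n = 16). Grm5 was the higher of both in 14 of 16 dendrites, but the difference did not pass after adjustment (two-sided exact permutation test, p = 0.0269, adjusted p = 0.134). Grm3 followed with 3.69 ± 9.96, Grm2 with 0.417 ± 1.57, Grm8 with 0.108 ± 0.242 and Grm4 with 0 in all 16 dendrites. The place of Grm4 holds for exon counts alone, which left out most of its reads. Its 3′UTRs had 181 reads in 5 dendrites and 912 in 9 somas. The 4 lower neighbouring pairs again did not separate (exact permutation test, adjusted p from 0.417 to 0.953). Apart from Grm5, and Grm4 with its 0 in dendrites, each of these means fell by a factor of over 1.5 without its highest library. For Grm7 in dendrites it became 6.92 ± 12.4 without neuron 1, and in somas 0.517 ± 0.893 without neuron 2 (SD, n = 15). For Grm2 a single library carried nearly the whole mean in each compartment. The order was read from the same values that were tested, and exon lengths were taken from the annotation and not from the transcripts present in these cells.

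Grm5 encodes mGluR5, the postsynaptic group I receptor of hippocampal neurons. Its raw reads on 3′UTRs ranged from 3 (neuron 16) to 1854 (neuron 9) in dendrites, with a median of 160.5, and from 4 (neuron 5) to 13219 (neuron 9) in somas, with a median of 599. After division by size factors the dendrites ranged from 4.36 to 788 normalized reads with a median of 411, and the somas from 5.21 to 1633 with a median of 313. The compartments overlapped up to 788 normalized reads, above which lay 5 somas (neurons 1, 4, 9, 10 and 16) and no dendrite. The highest dendritic level, in neuron 2, did not belong to the cell with the highest somatic level, neuron 9.

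Within neurons Grm5 was higher in somas in 10 of 16 and higher in dendrites in 6 of 16, namely neurons 2, 5, 7, 8, 12 and 14. The dendritic fraction, the normalized dendrite reads over the sum of both compartments, had a median of 0.362 and ran from 0.00539 in neuron 16 to 0.988 in neuron 12. Neurons 12 and 5 stood at the upper end, with 753 normalized reads in dendrites against 8.84 in the soma for neuron 12 and 134 against 5.21 for neuron 5. Neuron 16 stood at the lower end, with 4.36 in dendrites and 803 in the soma.

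This spread was wide in somas beside that of other broadly detected genes, and less unusual in dendrites. Over the 805 genes with reads in all 32 libraries, the highest soma had a median of 9.90 times the normalized reads of the lowest, and for Grm5 this ratio was 313, a value reached or passed by 25 of the 805 genes. In dendrites the ratio was 181 for Grm5 and 55.3 for the median gene, and 289 genes reached or passed Grm5. Both ratios of Grm5 rest on few reads at the lower end, with 4 raw reads in the soma of neuron 5 and 3 in the dendrites of neuron 16. The dendritic fraction of Grm5 had an SD of 0.297 over neurons against 0.185 for the median gene.

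The comparison of compartments asks which RNAs are relatively enriched in dendrites over the soma of the same cell. In the edgeR quasi-likelihood test with neuron as a block, 711 of 10880 genes tested on 3′UTRs passed an adjusted p of 0.05 (6.53%). Of these, 90 were dendrite-enriched and 621 soma-enriched, a balance that turned to 548 and 92 on rescaling dendrites to the median gene. In the reported scaling the median gene had a log2 fold change of −1.49. Of the 6 receptors only Grm5 and Grm7 had at least 1 read in at least 16 libraries and were tested, and neither was called. Normalization is relative to the other RNA in the tube, so less RNA of a gene and more RNA of the other genes cannot be told apart. The part of a smaller or less complete draw of the compartment was not tested.

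For Grm5 the log2 fold change on 3′UTRs, dendrites over somas, was −0.35 (SE 0.81, edgeR quasi-likelihood test, adjusted p = 0.778), and its sign was turned by rescaling to the median gene, which gave 1.14, and by leaving out any of 4 of the neurons. The value lies above the median gene, and the interval of 1 SE on either side of it includes 0. On exons, where 355 of 9804 genes (3.62%) were called and the median log2 fold change was −1.28, Grm5 was at 0.04 (SE 0.84, edgeR adjusted p = 0.981). In the 12 neurons amplified in 2 rounds the 3′UTR value was −0.39 (SE 1.14) and in the 4 amplified in 3 rounds it was −0.06 (SE 0.86). The difference of the compartment effect between 3 and 2 rounds was 0.12 on the log2 scale (SE 1.75, edgeR interaction test, adjusted p = 1).

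A call for Grm5 appeared under 1 scaling. With the ERCC spike-in totals as library sizes, in the 14 neurons with a labelled dilution, its exon log2 fold change fell to −3.15 (SE 1.29, edgeR adjusted p = 0.0279). Under that scaling 6160 of 9804 genes (62.8%) were called, 6145 of them higher in somas, and the median gene stood at −4.11, so Grm5 again lay above the median gene. Spike-in totals of these neurons ranged from 3083 to 283471 reads in dendrites and from 4347 to 95838 in somas. The same 14 neurons with TMM scaling gave −0.42 (SE 1.00, edgeR adjusted p = 0.786).

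**Figure D2:**
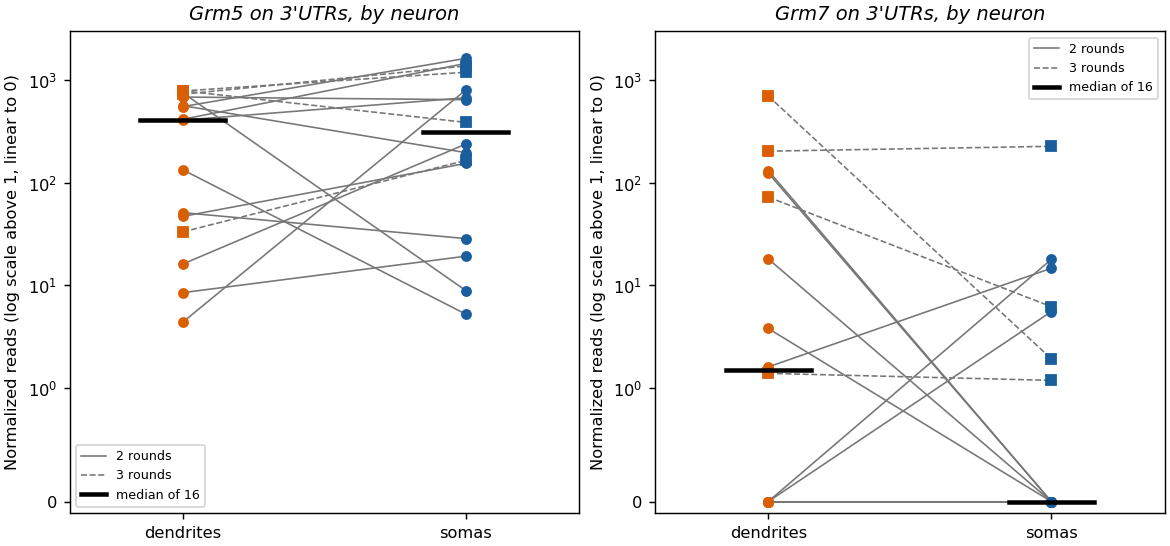
Size-factor normalized reads on the 3′UTRs of Grm5 (left) and Grm7 (right), with a line joining the dendrites and soma of each neuron, solid for 2 rounds and dashed for 3 rounds of amplification, and a bar at the median of 16 libraries (vertical axis logarithmic above 1 and linear below). Lines of Grm5 cross in both directions, between 4.36 and 1633 normalized reads, and Grm7 is at 0 in 7 dendrites and 9 somas.

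Reads of Grm5 fell mainly on 2 of its 6 counted 3′ ends, each end being a window on the last 500 nt of a 3′UTR. In the paper, ends lying within 500 nt of each other were joined, so a counted end can be longer and hold several 3′ ends. End 2 held 91.5% of the reads on Grm5 ends in dendrites and 72.8% in somas, pooled over libraries, and end 3 held 4.21% and 26.3%. The pooled soma share of end 3 rested on few cells, since neuron 9 gave 3682 of its 6232 reads. End 4 had no read in any library. In all, the end windows took 70.3% of the dendritic and 70.0% of the somatic 3′UTR reads of Grm5, while the median gene tested had 95.5% of its reads there.

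Neuron by neuron, the share on end 3, of reads on ends 2 and 3, could be compared in 11 neurons with at least 10 such reads in both compartments. In dendrites it was 0.224 ± 0.364 and in somas 0.234 ± 0.226 (SD, n = 11), and dendrites minus somas gave −0.010 ± 0.493. The share was higher in dendrites in 5 neurons and in somas in 6 (exact signed-rank permutation test, two-sided, p = 0.700). At an unadjusted p under 0.1, 8.44% of 3508 genes were called in the same test, and 0 of them passed after Benjamini-Hochberg adjustment. The dendrites covered the whole range, at 0 in neurons 8, 9, 10 and 11, at 0.0773 to 0.414 in neurons 1, 2 and 7, at 0.826 in neuron 3 and at 1.00 in neuron 14, where 12 reads made up the value. Neurons 4 and 13 were at 0.0086 and 0.0191. Neuron 12 could not enter, because only 1 of its 742 dendritic 3′UTR reads lay in an end window.

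**Figure D3:**
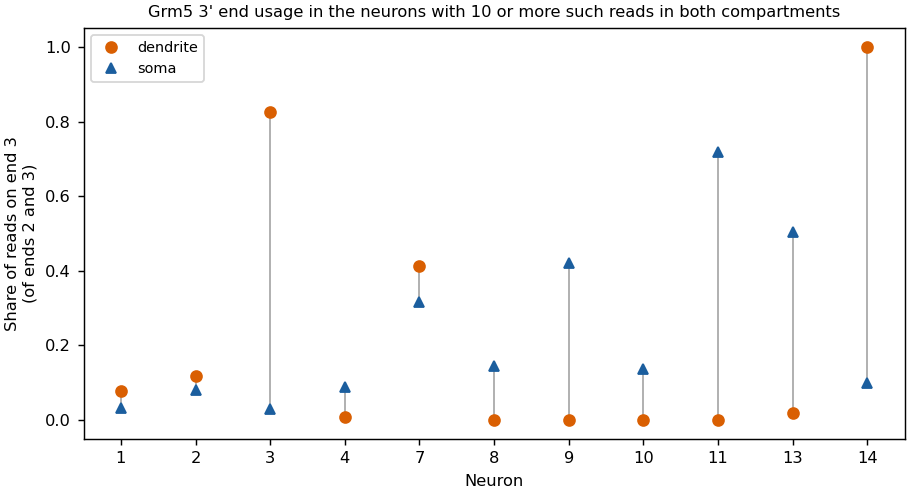
Share of Grm5 reads on end 3 of the sum on ends 2 and 3 (vertical axis) in dendrites (circles) and somas (triangles) of the 11 neurons with enough reads (horizontal axis). Dendrites reach 0 and 1.00, somas stay between 0.0286 and 0.719, and the direction of the difference changes from neuron to neuron.

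Among the 6815 other genes with reads in at least 24 libraries, Synj2bp, Polr2d and Zranb1 had the patterns most like Grm5. Synj2bp encodes an outer mitochondrial membrane protein that binds synaptojanin 2, Polr2d a subunit of RNA polymerase II, and Zranb1 a deubiquitinase. Their Pearson correlations with Grm5, on log2(normalized 3′UTR reads + 1) over 32 libraries after the mean of each compartment was removed, were 0.774, 0.699 and 0.697, against a median of 0.196 over all these genes. For Synj2bp the correlation was 0.767 within dendrites and 0.790 within somas. It was lower in dendrites for Polr2d (0.600 against 0.806 in somas) and Zranb1 (0.533 against 0.850). The points share libraries and neurons, and these genes were ranked on the same values.

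Grm7 encodes the group III receptor mGluR7. It had reads on its 3′UTRs in 9 of 16 dendrites and 7 of 16 somas, with a median of 1 read in dendrites and 0 in somas. The highest dendrite had 201 reads (neuron 1), followed by 85 in neuron 10 and 59 in neuron 5, and the highest soma had 59 (neuron 2). At 10 reads or more it was present in 5 dendrites and 5 somas, and in both compartments of only 2 neurons (neurons 2 and 4). These counts were not made at equal depth. With each library thinned to the smallest total of 646521 reads, an expected 5.00 dendrites and 1.03 somas would keep 10 reads. Of the 11 neurons with any read, 7 had the higher normalized level in dendrites and 4 in somas.

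The mean of Grm7 was 78.5 ± 177 normalized reads in dendrites and 17.1 ± 56.0 in somas (SD, n = 16), so the spread between neurons was larger than either mean. Both rested largely on 1 library, and without the dendrites of neuron 1 and the soma of neuron 2 they were 37.0 ± 64.8 and 3.15 ± 5.71 (SD, n = 15). Its log2 fold change on 3′UTRs was 2.33 (SE 1.59, edgeR adjusted p = 0.300) and on exons 2.63 (SE 1.57, edgeR adjusted p = 0.276). The value was positive in each of the 24 alternatives to the 3′UTR fit that could test it, the exon counts among them, from 1.66 to 3.57, and passed in none. Leaving out neuron 10, one of the dendrites with many reads and an empty soma, gave the lowest of these values. On exons DESeq2 came closest to the threshold, with 2.38 (SE 1.10, adjusted p = 0.0602). The lowest exon value was 0.385, with ERCC totals as library sizes (edgeR adjusted p = 0.818).

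Detection of Grm7 differed with the rounds of amplification. All 8 libraries of the 4 neurons with 3 rounds had at least 1 read, 3 of them with a single read, while 8 of the 24 libraries with 2 rounds did. Over all genes tested, the median gene had reads in 87.5% of the libraries with 3 rounds and 79.2% of those with 2 rounds. The log2 fold change was 3.32 (SE 1.85) in the neurons with 3 rounds and 1.93 (SE 1.63) in those with 2 rounds, and the interaction of 1.22 (SE 3.25) did not pass the edgeR test (adjusted p = 1). The part of amplification in the detection of Grm7 was not tested. Nearly all reads of Grm7 on 3′ ends, 99.5% in dendrites and 94.6% in somas, fell on end 1 of its 5 counted ends.

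Grm4, the group III receptor mGluR4, was found in some cells and not in others. It had reads in 5 dendrites, with 131 in neuron 8, 36 in neuron 10, 10 in neuron 5, 3 in neuron 9 and 1 in neuron 2. In somas it had reads in 9 of 16, from 1 read to 308 in neuron 9, 228 in neuron 10 and 146 in neuron 5. Each of the 5 neurons with dendritic reads also had reads in its soma, and neurons 4, 6, 7 and 16 had them in the soma alone. With reads in 14 libraries Grm4 missed the limit for the test. In the fit with no filter its log2 fold change was −2.34 (SE 1.75, edgeR adjusted p = 0.603).

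Counts on exons gave another picture of Grm4. All 16 dendrites were at 0, and 5 somas had 39, 27, 32, 63 and 1 reads (neurons 4, 5, 9, 10 and 16). In all, 162 reads lay on its exons and 1093 on its 3′UTRs, whereas Grm5 and Grm7 had nearly equal numbers in both counts (38631 and 38933 for Grm5, 623 and 612 for Grm7). In 5 libraries Grm4 had at least 10 reads on 3′UTRs and 0 on exons. Of its reads on 3′ ends, 100% in dendrites and 94.1% in somas were on end 2 of the 4 counted ends. The dendritic signal of Grm4 thus rests on that 3′UTR window, for which the deposited table gives no coordinates.

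**Figure D4:**
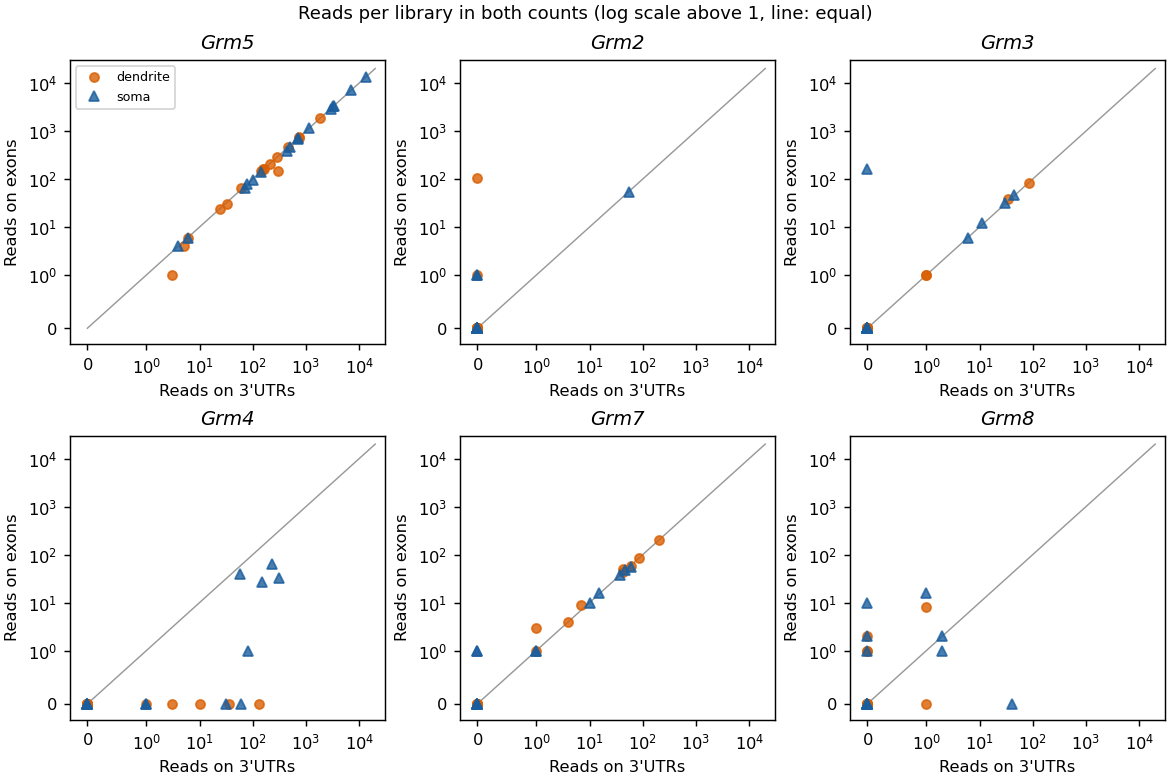
Reads on exons (vertical axis) against reads on 3′UTRs (horizontal axis) for each receptor, with 1 point per library, circles for dendrites and triangles for somas, both axes logarithmic above 1 and linear below, and the line of equal counts. Points of Grm5 and Grm7 follow the line, and those of Grm4 lie below it, with all dendrites at 0 on exons.

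Grm3, the group II receptor mGluR3, was found in 8 neurons and never in both compartments of the same neuron. The dendrites of neuron 12 had 84 reads on 3′UTRs, those of neuron 5 had 34, and those of neurons 8 and 16 had 1 each. Somas of neurons 4, 1, 2 and 11 had 44, 30, 11 and 6 reads. Exon counts were close to these values in the same libraries and added the soma of neuron 13, with 158 reads on exons and 0 on 3′UTRs.

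Since Grm3 is also an astrocyte gene, the astrocyte markers were read in the same libraries. In the 5 libraries with at least 10 Grm3 reads on 3′UTRs, the summed level of the 6 markers ranged from 5.08 to 536.5 normalized reads with a median of 345, and in the other 27 libraries from 0 to 1173 with a median of 42.6. The dendrites of neuron 5 had 474, with reads of Gfap, Aqp4 and Slc1a3. The dendrites of neuron 12, which had the most Grm3 reads on 3′UTRs, had 5.08, with 0 reads of each of these 3 markers, and the soma of neuron 13 had 0.604. The part of astrocyte RNA in the Grm3 reads was not tested in any library.

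Grm2 and Grm8 were near the limit of detection. Grm2, the group II receptor mGluR2, had 3′UTR reads in a single library, 54 in the soma of neuron 12, and the same 54 on exons. Its 0 reads in each of the 16 dendrites allow up to 3 reads per library, which is 3 of 646521 reads in the shallowest dendrite and 3 of 6954420 in the deepest. On exons the dendrites of neuron 9 had 106 Grm2 reads, with 0 on the 3′UTR. Grm8, the group III receptor mGluR8, had 41 reads on 3′UTRs in the soma of neuron 15 and at most 2 in the 5 other libraries where it was seen. On exons that soma had 0, while the somas of neurons 13 and 5 had 16 and 10 and the dendrites of neuron 12 had 8. The highest counts on exons and on 3′UTRs thus lay in different cells. Of the 12 libraries with Grm8 reads in either count, 4 had them in both. With no filter on low counts neither was called, nor was Grm3 (edgeR adjusted p = 0.620 for Grm2, 0.825 for Grm8 and 0.998 for Grm3).

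The signalling genes on either side of the receptors were read in the same libraries. Of 12 tested genes of the Gq arm, which carries the signal of Grm5, 0 were called by edgeR, against 6.53% of all genes tested. An unadjusted edgeR p under 0.05 was found for 3 of the 12, against 30.2% of all genes tested. DESeq2 called 6 of the 12, 5 of them higher in somas, against 50.5% of all genes. The median log2 fold change of the arm was −0.97, against −1.49 for all genes, and it became 0.52 on rescaling dendrites to the median gene. Gnaq, which encodes the α subunit of Gq, had 805 ± 727 normalized reads in dendrites and 1036 ± 445 in somas (SD, n = 16). The phospholipase Plcb1 had 366 ± 306 and 631 ± 639, and the protein kinase C gene Prkcb had 649 ± 887 and 338 ± 264.

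In the Gi/o arm, through which the group II and III receptors act, 1 of 15 tested genes was called by edgeR and 6 by DESeq2, against 6.53% and 50.5% of all genes, and the median was −0.93. Gnai3, an inhibitory α subunit, was higher in somas, with a log2 fold change of −5.01 (SE 1.58, edgeR adjusted p = 0.0453). It had 22.0 ± 44.0 normalized reads in dendrites and 95.6 ± 74.6 in somas (SD, n = 16), and the soma was higher in 13 neurons. Its call was lost on exons (−3.70, edgeR adjusted p = 0.129) and on leaving out any 1 of 12 neurons (all but 2, 6, 13 and 14). Without the block for neuron the 3′UTR value of Gnai3 shrank to −2.18 (edgeR adjusted p = 0.324). Gnao1, the main Go subunit of brain, was the most abundant gene of the arm, with 1267 ± 666 in dendrites and 2475 ± 752 in somas (SD, n = 16). Its soma was higher in 16 of 16 neurons, while its log2 fold change of −0.93 (SE 0.53) did not pass the edgeR test (adjusted p = 0.215). The next were Gng3, a γ subunit, with 983 and 1705 normalized reads, and Gnai1, with 512 and 1738, in dendrites and somas.

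Among 14 tested partners of the receptors, 1 was called by edgeR (6.53% of all genes) and 5 by DESeq2 (50.5% of all genes), and the median log2 fold change was −0.44. Siah1a, an E3 ubiquitin ligase that binds group I receptors, was at −6.03 (SE 1.73, edgeR adjusted p = 0.0305), with 18.3 ± 39.1 normalized reads in dendrites and 107 ± 140 in somas (SD, n = 16). It was no longer called on exons, where its log2 fold change was −5.18 (edgeR adjusted p = 0.0530), or on leaving out any 1 of neurons 3, 4, 7, 9, 12, 13, 15 and 16. Without the block for neuron its log2 fold change on 3′UTRs shrank to −2.48 (edgeR adjusted p = 0.288). Rgs4, which speeds the turn-off of Gq and Gi proteins, had 854 ± 1081 and 805 ± 851 normalized reads in dendrites and somas. Homer2, a scaffold that binds group I receptors, had 682 ± 810 and 437 ± 470, and Shank2, a postsynaptic scaffold joined to Homer, had 385 ± 434 and 165 ± 140 (SD, n = 16).

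Of 10 tested genes linked to the plasticity that group I receptors set off, 1 was called by edgeR and 4 by DESeq2, with the same shares of all genes as above, and the median was −0.91. Fmr1, whose protein FMRP represses translation downstream of group I receptors, was higher in somas (log2 fold change −5.16, SE 1.35, edgeR adjusted p = 0.0203), with 24.5 ± 61.0 normalized reads in dendrites and 126 ± 94.7 in somas (SD, n = 16). Its exon value of −4.12 did not pass (edgeR adjusted p = 0.101), nor did its 3′UTR value of −4.69 without neuron 16 (edgeR adjusted p = 0.0547). Without the block for neuron its 3′UTR value shrank to −2.12 (edgeR adjusted p = 0.302). Map1b had 2376 ± 1705 and 3297 ± 996, App 1538 ± 905 and 3810 ± 2221, and the cap-binding factor Eif4e 570 ± 555 and 719 ± 332 normalized reads in dendrites and somas (SD, n = 16), and none of them was called. All 3 genes called in the lists also lost their call with no filter on low counts (edgeR adjusted p = 0.132 for Gnai3, 0.0734 for Siah1a and 0.0603 for Fmr1), in the neurons with 2 rounds alone and in those with 3 rounds alone. The same held on rescaling dendrites to the median gene, where the 3 list medians besides that of the Gq arm became 0.56, 0.98 and 0.59. Under that scaling Shank2 at 2.99 and Shank3, a related scaffold named here after its values were seen, at 3.82 passed as higher in dendrites (log2 fold changes, edgeR adjusted p = 0.0401 and 0.0168). Of all 10880 genes tested, 640 passed under it, 548 of them higher in dendrites.

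**Figure D5:**
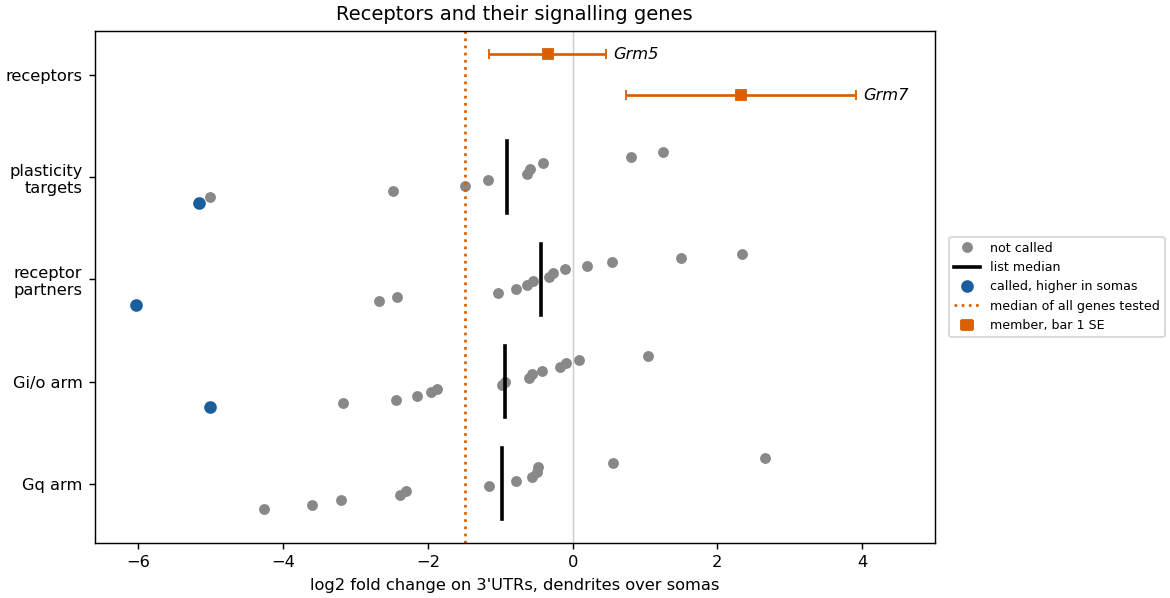
Log2 fold change on 3′UTRs, dendrites over somas (horizontal axis), for tested genes of 4 signalling lists and for Grm5 and Grm7 with bars of 1 SE, with blue points for genes called higher in somas, black lines at list medians and a dotted line at the median of all genes tested. The list medians run from −0.97 to −0.44, right of the all-gene median of −1.49, and the bar of Grm5 crosses 0.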

How the data were processed

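The authors amplified poly-adenylated RNA of dendrites and somas by the aRNA method, prepared stranded libraries, aligned reads to mm10 with STAR 2.4.0 and used VERSE to count reads with a unique position. What was deposited is raw counts, without normalization: per gene on the union of 3′UTRs, per 3′ end (74532 features), and per gene on exons with 92 ERCC spike-ins. Depth per library is given with the results, and precision was taken from the spread between neurons.

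From these counts, genes with reads in at least 16 libraries were compared with edgeR 4.0.16 in R 4.3.3 (TMM, robust quasi-likelihood test, neuron as a block, adjusted p at most 0.05). SE is the log2 fold change over the root of F. Levels are counts over DESeq2 1.42.0 size factors, which for 3′UTR counts were set on the 805 genes with reads in all libraries. Exon levels used separate size factors, taken from the exon counts. Other values used Python 3.11.15, NumPy 2.4.6, pandas 2.3.3 and SciPy 1.17.1. The pairing comes from the cells. Deviations from compartment means correlated at 0.0851 ± 0.0741 (SD, n = 16) within neurons and −0.0053 ± 0.0515 (SD, n = 240) between them. The deposited 3′ ends carry numbers and no coordinates, so the share of the higher-numbered end replaced the distal fraction.

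The receptors and gene lists were chosen with earlier results of these data known. All receptors, every listed signalling gene called in the reported edgeR fit on 3′UTRs and the 3 most abundant of each list are named. Genes called by DESeq2 alone are counted and not all named. Alternatives covered the test, scaling, filter, block, amplification rounds, single neurons and exon counts, and 4 exon settings and those of called signalling genes were chosen after seeing the data. The tests were tried on simulated data. No sequence is shown.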

Additional observations from a re-analysis of the deposited data

How the results depend on the processing

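Neither tested receptor was called under any alternative on 3′UTR counts. The log2 fold change of Grm5, which was −0.35, turned positive on rescaling dendrites to the median gene (1.14), with at least 10 reads in 16 libraries (0.0018) and on exons (0.037). Leaving out single neurons gave −0.59 to 0.21, positive without neurons 3, 13, 15 or 16. On exons, where it was 0.04, it turned negative with DESeq2 (−0.51), ERCC totals (−3.15, the only call), neurons 3 to 16 (−0.42) and 2 rounds alone (−0.21). Grm7 kept its sign throughout, but its exon value of 2.63 fell to 0.385 with ERCC totals (edgeR adjusted p = 0.818). Without the replicate block for neuron, Grm5 was at −0.23 and Grm7 at 2.62, neither called.

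The number of genes called on 3′UTRs, 711 in the reported fit, moved to 5492 with DESeq2, 1089 with DESeq2 size factors in edgeR, 158 with no filter, 269 with at least 10 reads, 234 without the replicate block for neuron, 397 in neurons with 2 rounds, 5 in those with 3 rounds and 355 on exons. Single neurons left out gave 196 (without neuron 16) to 1077 (without neuron 5). Rescaling to the median gene gave 640, of which 548 were higher in dendrites, against 90 of 711. On exons, 355 became 4921 with DESeq2, 6160 with ERCC totals, 659 in neurons 3 to 16, 99 with 2 rounds and 0 with 3 rounds (569 at an unadjusted p under 0.05 in edgeR). The cause of these changes was not tested, apart from fewer neurons or genes entering a fit. No interaction with rounds was called by edgeR under either filter (288 genes at an unadjusted p under 0.05), and 3′ end calls ranged from 242 to 355.

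Libraries with Grm5 reads numbered 32, and 27 at 10 reads. Thinned to the smallest total, about 15.6 dendrites and 15.7 somas would keep a Grm5 read, and 12.2 of each would keep 10. For other receptors thinning moved the counts at 10 reads. Somas would go from 7 to 2.58 for Grm4, from 5 to 1.03 for Grm7 and from 3 to 0.68 for Grm3. Dendrites would go from 3 to 1.99, from 5 to 5.00 and from 2 to 2.00 for the same genes. Without the block, Gnai3, Siah1a and Fmr1 were at −2.18, −2.48 and −2.12, none called, and for Fmr1 the adjusted p was 0.0824 with 2 rounds alone and 0.673 with 3 rounds alone.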
